A study of Homo sapiens with 6 samples.

Results

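The ganglioside synthesis enzymes are 10 genes whose products build, extend or trim the sialylated glycolipids of the cell surface, GD2 among them. They were taken by symbol, as UGCG, B4GALT5, B4GALT6, ST3GAL5, ST8SIA1, ST8SIA5, B4GALNT1, B3GALT4, ST3GAL2 and NEU3, and all 10 had a row among the 22718 genes of the deposited tables. RNA was measured in 6 libraries labelled HT1197, an established human bladder carcinoma line. In 1 arm the cells received vehicle (1% DMSO), and in the other they received panobinostat, an inhibitor of histone deacetylases, at 2 times the half-maximal inhibitory concentration for the line. Both arms were kept for 48 hours and held 3 libraries each, lettered A to C, with no genetic change or other agent named for either. The condition label calls the first arm untreated, and the protocol gives it the solvent. Cells of this single line were plated in triplicate, but no label ties a library to its plate. The spread between libraries, on which every p-value here rests, may therefore be technical.

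Gangliosides are made stepwise in the Golgi from ceramide. UGCG adds glucose, B4GALT5 and B4GALT6 add galactose to give lactosylceramide, and ST3GAL5 adds the sialic acid that makes GM3. ST8SIA1 adds a further sialic acid to GM3 and makes GD3, and B4GALNT1 then adds N-acetylgalactosamine, which turns GM3 into GM2 and GD3 into GD2. ST8SIA1 is therefore the entry to GD2, a lipid abundant on neuroblastoma cells and the target of therapeutic antibodies. B3GALT4 and ST3GAL2 lengthen the chain beyond GM2 and GD2, ST8SIA5 adds sialic acid to GD3 and longer species, and NEU3 is a sialidase that removes it at the plasma membrane. Transcripts were measured here, and neither enzyme activity nor any ganglioside was.

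The libraries held 13417898 to 18186087 counts. Levels are given as CPM (counts scaled to each library by the trimmed mean of M-values), and 3 counts, taken as the floor, correspond to 0.161 to 0.216 CPM. The label of the line was checked against marker genes. Of 17 urothelial markers 10 had a row, and UPK1B, FOXA1 and TP63 had 0 counts in every vehicle library, which allows up to 0.216 CPM in the shallowest of them. Of those 10, only GATA3 reached 1 FPKM (counts per kilobase of gene, scaled to library size) with vehicle, at 10.6 ± 1.93 (SD, n = 3), and this factor is also expressed by sympathetic neuroblasts. Of 13 neuroblast markers, 12 stood at 1 FPKM or more with vehicle, among them MYCN at 832 ± 67.3 FPKM and HAND2 at 238 ± 10.9 FPKM, while TH was at 0.087 ± 0.032 FPKM. The libraries thus went against the label, and the cells are called the libraries labelled HT1197 here. The 12 fibroblast, leukocyte and endothelial markers had 9 rows, whose summed level was 5.29 to 7.14 FPKM with vehicle and 12.4 to 13.3 FPKM with panobinostat. Of the 8 tested, 7 were higher (4 kept through the panobinostat arm alone), where 33.7% of all genes tested were higher. LYZ of macrophages, the 1 that was lower (31.5% of all genes tested), had been kept through the vehicle arm alone. The leukocyte marker PTPRC had 0 to 3 counts per vehicle library and 12 to 21 with panobinostat, and CD68, CD3E and PECAM1 were not analysed here. The summed level of the neuroblast markers went from 2077 to 2353 FPKM with vehicle to 1773 to 1871 FPKM with panobinostat. Of 12 tested, 9 were lower (31.5% of all genes tested) and 2 higher (33.7% of all genes tested). The part of these transcripts in the results that follow was not tested, and fewer cells of a kind cannot be told apart from less RNA per cell.

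ST8SIA1, the GD3 synthase, rose from 0.247 ± 0.040 CPM (mean ± SD, n = 3) with vehicle to 3.86 ± 0.326 CPM with panobinostat. ST3GAL5, the GM3 synthase, rose from 12.5 ± 1.60 to 28.96 ± 2.41 CPM, and the lactosylceramide synthase B4GALT5 rose 1.25-fold. B4GALNT1, the GM2 and GD2 synthase, fell from 48.7 ± 5.08 to 38.4 ± 3.36 CPM, and UGCG fell by 0.18 on the log2 scale. Of the 10 enzymes, 9 were kept by the filter on low counts and tested, 4 of them were higher (33.7% of all 16084 genes tested were) and 2 were lower (31.5% of all genes tested). Against that background the counts say nothing particular about the enzymes. Calls are those of the quasi-likelihood test of edgeR, with p adjusted by Benjamini-Hochberg over all genes tested and a threshold of 0.05. Of the 9, 2 (ST8SIA1 and ST8SIA5) passed the filter through the panobinostat arm alone, and such genes could hardly be called lower. The median log2 fold change of the 9 was 0.33, against 0.01 for all genes tested, and since the filter acts on it this median is a description only. The arms did not overlap for 7 of the 9, against 68.8% of all genes tested.

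**Figure D1:**
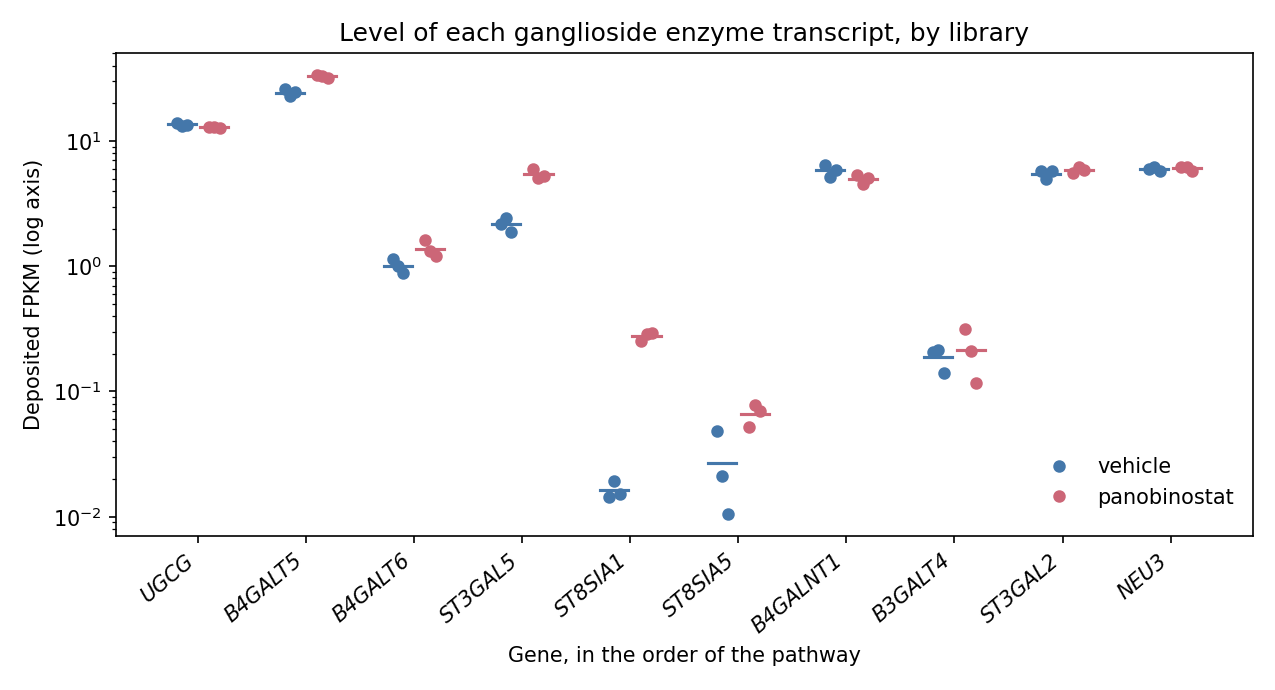
Deposited FPKM (log axis) of the 10 enzyme transcripts in the order of the pathway. Points are the 3 vehicle and 3 panobinostat libraries, and lines are arm means. ST8SIA1 moved from 0.014 to 0.019 FPKM with vehicle to 0.252 to 0.292 FPKM with panobinostat, and ST3GAL5 is the other gene whose arms lie far apart.

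The bases before the start sites of the 3 genes with the clearest rises are shown because those genes were higher together while UGCG and B4GALNT1 were not. RefSeq held a promoter entry (GRCh38.p14) for 5 of the 10 enzymes: UGCG, B4GALT5, ST3GAL5, ST8SIA1 and NEU3. The stretches run 5′ to 3′ on the strand of the gene. Each is the longest part free of GENCODE exons within 250 bases before a RefSeq start. That of ST3GAL5 was cut at both ends, and that of ST8SIA1 at the end next to the start. Capitals mark matches on either strand to the GC box GGGCGG, the CCAAT box CCAAT, and the E-box CANNTG. The stretch of ST8SIA1 is chr12:22334715-22334957 (minus strand), that of ST3GAL5 is chr2:85889056-85889279 (minus strand, the most upstream of 5 starts listed), and that of B4GALT5 is chr20:49713879-49714128 (minus strand).
ST8SIA1: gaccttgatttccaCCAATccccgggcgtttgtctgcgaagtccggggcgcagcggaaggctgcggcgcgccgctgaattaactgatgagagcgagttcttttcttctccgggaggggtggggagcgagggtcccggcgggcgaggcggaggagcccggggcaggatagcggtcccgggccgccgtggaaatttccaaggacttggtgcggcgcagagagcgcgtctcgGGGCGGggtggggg
ST3GAL5: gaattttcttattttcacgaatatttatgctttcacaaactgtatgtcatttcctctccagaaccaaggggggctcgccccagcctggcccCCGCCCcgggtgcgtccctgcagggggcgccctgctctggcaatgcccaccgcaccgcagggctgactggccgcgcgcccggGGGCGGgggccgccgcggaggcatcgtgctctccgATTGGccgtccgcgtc
B4GALT5: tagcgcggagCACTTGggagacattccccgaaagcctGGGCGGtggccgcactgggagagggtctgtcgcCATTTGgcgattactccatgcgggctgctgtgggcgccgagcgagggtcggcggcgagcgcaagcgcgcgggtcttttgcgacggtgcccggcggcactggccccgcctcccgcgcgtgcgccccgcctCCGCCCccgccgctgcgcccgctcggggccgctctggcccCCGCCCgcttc

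The 3 windows of 250 bases held 28 CpG dinucleotides before ST8SIA1, 24 before ST3GAL5 and 37 before B4GALT5, against a median of 11 over the 35116 promoters in the table. The other 4 starts listed for ST3GAL5 had 29, 38, 2 and 2 CpG, and the pair with 2 held no GC box. Of the enzymes that were not higher, UGCG had 39 CpG in its window, and NEU3 had 2 and 21 before its 2 starts. Both NEU3 windows, and those of the 2 ST3GAL5 starts with 2 CpG, lay wholly within GENCODE exons of the same gene. A GC box was found in the printed windows and in that of UGCG, once for ST8SIA1, 2 times for ST3GAL5 and 3 times each for B4GALT5 and UGCG. It also occurred once before the start of NEU3 with 21 CpG, and 42.6% of all promoters hold one. A CCAAT box lay before ST8SIA1 and ST3GAL5, and also before the start of NEU3 with 2 CpG (32.0% of all promoters). B4GALT5, which was higher, and UGCG had none. In the 21 bases before ST3GAL5 that were left out as exon, the CRE letters TGACGTCA occurred, which 1.65% of all promoters hold. An E-box was found 2 times before B4GALT5 and in neither of the others printed (61.8% of all promoters). The TATA letters TATAAA and the AP-1 letters TGANTCA were in none of the printed windows or those of UGCG and NEU3 (10.7% and 6.57% of all promoters). None of the marked matches overlap each other. The count table does not say which start was used.

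UGCG (ENSG00000148154, chromosome 9, 111896766 to 111935369, plus strand) commits ceramide to glycolipids. It measured 66.7, 63.5 and 65.2 CPM in vehicle libraries A, B and C, and 57.5, 57.5 and 57.2 CPM in panobinostat libraries A, B and C. All 3 panobinostat libraries lay below the vehicle ones. The log2 fold change was -0.18 ± 0.07 (estimate ± SE, adjusted p = 0.0368). The call was lost with DESeq2 (adjusted p = 0.0648), with a filter at a mean of 1 CPM (0.0749) and with limma on FPKM (0.277 to 0.308). Leaving out any 1 of 4 libraries also ended it: vehicle A (0.0513), vehicle C (0.0877), panobinostat B (0.0992) and panobinostat C (0.104). Scaling by library size alone (0.418) or by upper quartile (0.618) did so too. Those 2 scalings moved the log2 fold changes of all genes up by 0.11 and 0.14 in the median, and calls that were higher from 51.7% to 61.0% and 63.2% of all calls.

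B4GALT5 (ENSG00000158470, chromosome 20, 49632945 to 49713878, minus strand) and B4GALT6 (ENSG00000118276, chromosome 18, 31622247 to 31685836, minus strand) are the 2 lactosylceramide synthases. B4GALT5 measured 125.7, 112 and 120.5 CPM with vehicle and 152, 149 and 148 CPM with panobinostat. Every panobinostat library was above every vehicle library. The log2 fold change was 0.33 ± 0.07 (adjusted p = 0.000832), and it passed under all 16 alternatives. B4GALT6 measured 6.20, 5.56 and 4.91 CPM with vehicle and 8.21, 6.74 and 6.21 CPM with panobinostat. Its arms nearly touched, at 6.20 and 6.21 CPM, and it did not pass (0.34 ± 0.16, adjusted p = 0.0748). It did pass when scaled by library size alone (adjusted p = 0.0248) or by upper quartile (0.0171), and when vehicle library A was left out (0.0437). Per length, B4GALT5 made up 95.8% to 96.5% of the summed FPKM of the pair in the vehicle libraries and 95.4% to 96.4% in the panobinostat libraries. The arms overlapped in this share (exact two-sided permutation p = 0.9, n = 3 per arm, where 0.1 is the smallest possible).

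ST3GAL5 (ENSG00000115525, chromosome 2, 85837120 to 85905199, minus strand) makes GM3, the root of the a- and b-series gangliosides. It measured 12.3, 14.2 and 11.0 CPM in vehicle libraries A, B and C, and 31.6, 26.9 and 28.3 CPM in the panobinostat libraries. The lowest panobinostat library was well above the highest vehicle library. The log2 fold change was 1.21 ± 0.11 (adjusted p = 2.96e-07), a 2.31-fold rise, and it ran from 1.02 to 1.35 over 16 alternatives, all past the threshold. Noncoding genes on the opposite strand overlap it, and the file header gives a stranded count.

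ST8SIA1 (ENSG00000111728, chromosome 12, 22063773 to 22437041, minus strand) had 3, 5 and 4 counts in vehicle libraries A, B and C, and 49, 67 and 77 counts in panobinostat libraries A, B and C. Those are 0.216, 0.293 and 0.231 CPM against 3.50, 3.96 and 4.12 CPM. The vehicle libraries lay at or just above the floor of 3 counts, and every panobinostat library was far above them. The ratio of the arm totals, 193 over 12 counts scaled to the libraries, was 15.7, with an exact 95% counting interval of 8.76 to 30.8 that covers counting error only. The log2 fold change was 3.92 ± 0.30 (adjusted p = 3.29e-08), and the gene was number 466 of 16084 when ordered from the largest rise. Of these 16084, the filter kept 1754 through the panobinostat arm alone and 277 through the vehicle arm alone. ST8SIA1 was among the former, so its rank is a description only. It passed in all 14 alternatives that tested it, although on log2(FPKM + 1) the difference was 0.33, since that scale understates the change of low genes. Limma with a filter at 1 FPKM did not keep it. Several genes with no coding product lie within ST8SIA1 on its own strand, so its level may include reads that fit them. CMAS, which makes the activated sialic acid that ST8SIA1 uses, overlaps it on the opposite strand and did not pass (-0.17 ± 0.08, adjusted p = 0.0866).

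ST8SIA5 (ENSG00000101638, chromosome 18, 46667821 to 46759257, minus strand) had 11, 6 and 3 vehicle counts and 11, 20 and 20 panobinostat counts. Vehicle library A (0.793 CPM) and panobinostat library A (0.785 CPM) overlapped. The test called it higher (1.28 ± 0.44, adjusted p = 0.0188). The call was lost with DESeq2 (adjusted p = 0.0589), with limma on log2(FPKM + 1) without a filter (0.191), and when vehicle B (0.0732), vehicle C (0.107) or panobinostat B (0.0687) was left out.

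B4GALNT1 (ENSG00000135454, chromosome 12, 57623410 to 57633355, minus strand) measured 53.4, 43.3 and 49.3 CPM with vehicle and 41.1, 34.7 and 39.5 CPM with panobinostat. Every panobinostat library lay below the lowest vehicle library, which was B. The log2 fold change was -0.34 ± 0.10 (adjusted p = 0.00619). It kept its sign in all 16 alternatives, from -0.42 to -0.19, and the call was lost when scaled by library size alone (adjusted p = 0.0543), by upper quartile (0.0787) or with limma on FPKM (0.108 to 0.143).

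B3GALT4 and ST3GAL2 lengthen the chain, NEU3 removes sialic acid from gangliosides, and none of the 3 was called. B3GALT4 (ENSG00000235863, chromosome 6, 33277132 to 33284832, plus strand), the GM1 and GD1b synthase, had 7, 9 and 6 vehicle counts and 10, 8 and 5 panobinostat counts, and it was not kept for testing. The ratio of its arm totals was 1.02, with a counting interval of 0.542 to 1.91 that covers counting error only. These counts therefore do not tell a rise or a fall within that interval from no change. ST3GAL2 (ENSG00000157350, chromosome 16, 70375978 to 70439237, minus strand), which adds the outer sialic acid of GD1a and GT1b, measured 57.4, 50.8 and 58.6 CPM with vehicle and 51.8, 58.0 and 56.0 CPM with panobinostat. Its arms overlapped and its log2 fold change was -0.01 ± 0.08 (adjusted p = 0.940). NEU3 (ENSG00000162139, chromosome 11, 74988134 to 75018893, plus strand), the membrane sialidase, measured 46.3, 49.2 and 45.9 CPM with vehicle and 45.2, 44.8 and 42.6 CPM with panobinostat. Its arms did not overlap, but by a margin smaller than the spread within an arm, and it did not pass (-0.09 ± 0.08, adjusted p = 0.303). Across the alternatives neither ST3GAL2 nor NEU3 passed, and the sign of both flipped to higher with library size alone, upper quartile scaling and limma on FPKM, and that of ST3GAL2 also with a filter at 1 CPM and without some single libraries. All coordinates of genes are on GRCh38.

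**Figure D2:**
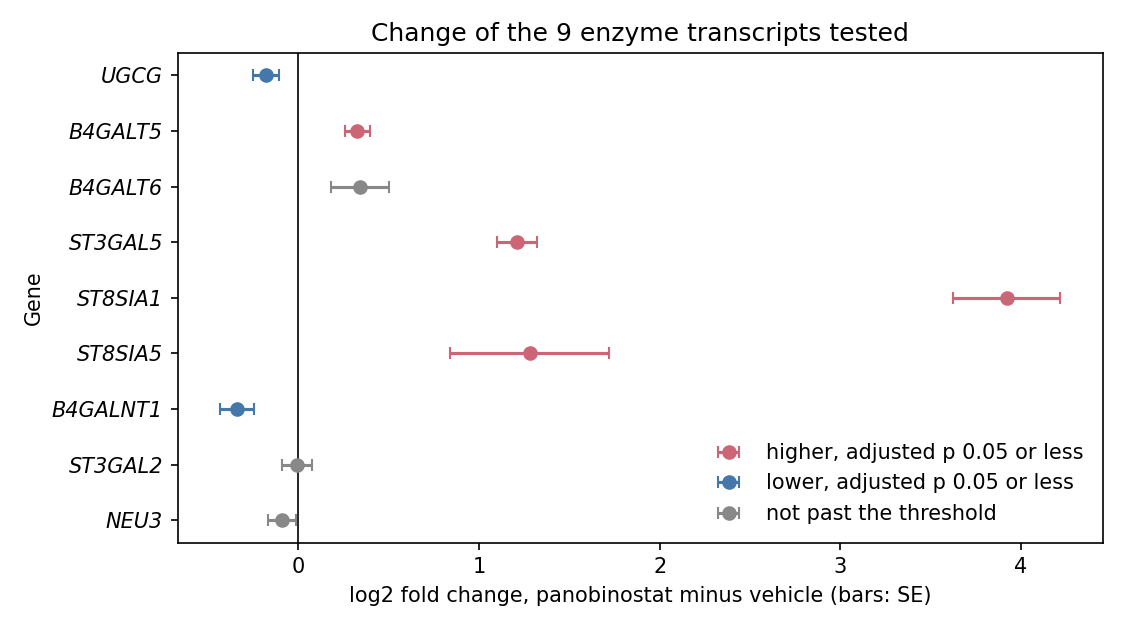
Log2 fold change (panobinostat minus vehicle, edgeR, n = 3 per arm) of the 9 enzyme transcripts tested, with SE as bars. ST8SIA1 stands at 3.92, ST8SIA5 and ST3GAL5 at 1.28 and 1.21, and the other 6 lie between -0.34 and 0.34.

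Levels of different enzymes were compared per length, on the deposited FPKM. With vehicle the order was B4GALT5 (24.3 ± 1.57 FPKM), UGCG (13.6 ± 0.433), NEU3 (5.99 ± 0.210), B4GALNT1 (5.85 ± 0.654), ST3GAL2 (5.49 ± 0.435), ST3GAL5 (2.16 ± 0.272), B4GALT6 (1.01 ± 0.125), B3GALT4 (0.187 ± 0.041), ST8SIA5 (0.027 ± 0.020) and ST8SIA1 (0.016 ± 0.003). The libraries of B4GALNT1 overlapped those of NEU3 above it and ST3GAL2 below it, while NEU3 (5.81 to 6.22 FPKM) and ST3GAL2 (4.98 to 5.76 FPKM) did not overlap each other. The last pair overlapped. With panobinostat ST3GAL5 stood at 5.42 ± 0.470 FPKM, within the range of NEU3, ST3GAL2 and B4GALNT1, which lay at 6.07 ± 0.245, 5.89 ± 0.327 and 4.98 ± 0.429 FPKM. ST8SIA1, at 0.277 ± 0.022 FPKM, overlapped B3GALT4, and it was still the third lowest of the 10. This order is per length, and the B3GALT4 values rest on 5 to 10 counts per panobinostat library, against 49 to 77 for ST8SIA1.

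The balance between the enzymes of the b-series branch can be read from ratios within a library, which do not depend on library scaling. B4GALNT1 FPKM stood at 446, 268 and 385 times ST8SIA1 FPKM in vehicle libraries A, B and C. With panobinostat the ratio was 21.3, 15.8 and 17.3. The arms did not overlap, and the exact two-sided permutation p of 0.1 is the smallest that 3 libraries against 3 can give. ST3GAL5 FPKM went from 124 to 149 times ST8SIA1 FPKM with vehicle to 17.7 to 23.6 times with panobinostat. ST3GAL5 FPKM over B4GALNT1 FPKM went from 0.333, 0.472 and 0.321 to 1.11, 1.12 and 1.03. The vehicle values of the ratios to ST8SIA1 rest on 3 to 5 counts of that gene per library.

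The genes whose pattern lay nearest to ST8SIA1 were FPGT, FKBP1B and CRYZ, at a Euclidean distance of 0.135 to 0.192 between log2(CPM + 1) values over the 6 libraries, each gene centred on its own mean. They were drawn from 9930 candidates, all tested and averaging at least 10 CPM. FPGT went from 18.3 ± 1.41 to 72.5 ± 2.09 CPM, FKBP1B from 5.31 ± 0.354 to 23.5 ± 1.54 CPM and CRYZ from 26.7 ± 0.865 to 101.9 ± 2.11 CPM. On this scale the pseudocount of 1 shrinks the change of ST8SIA1, so genes with smaller fold changes lie near it. Nearest to B4GALNT1 were CDK8, ZFHX3 and TIMP2, at 0.090 to 0.101. The 6 libraries hold only 2 conditions, and the likeness is a description without a test.

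The steps around the enzymes were described with gene lists. Of all 16084 genes tested, 33.7% were higher and 31.5% were lower, and every list count is to be read beside these shares. Of 17 genes of ceramide synthesis and transport, 15 were tested, 5 were higher, 5 were lower and the median log2 fold change was -0.09. CERS2, a ceramide synthase for very long acyl chains, fell from 208 ± 9.61 to 122 ± 2.83 CPM, and CERS1 fell by 0.75 ± 0.15 on the log2 scale. SPTSSA, a small subunit of serine palmitoyltransferase, rose 1.29-fold, and PLEKHA8, which carries glucosylceramide toward lactosylceramide synthesis, rose 1.22-fold. Among 14 genes that use ceramide or glucosylceramide in other ways or break them down, 11 were tested, 7 were higher and 1 was lower, with a median of 0.38. ASAH1, the lysosomal ceramidase, rose from 127 ± 5.50 to 214 ± 0.139 CPM, UGT8, which makes galactosylceramide, rose 1.56-fold, and ACER2, a Golgi ceramidase, rose 1.81-fold. CERK, ceramide kinase, was the 1 that fell, from 206 ± 15.1 to 115 ± 5.50 CPM. SPTLC3, a subunit of serine palmitoyltransferase, and GAL3ST1, which sulfates galactosylceramide, were among the genes called higher and passed the filter through the panobinostat arm alone. SPTLC3 had 1 count over the vehicle libraries and 81 over the panobinostat ones, and GAL3ST1 had 1 and 59, so their fitted changes are uncertain (counting intervals of the ratio 13.8 to 3152 and 9.92 to 2306).

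Transferases that lead lactosylceramide into other glycolipid series, or belong to the same galactosyltransferase families, went both ways. All 10 with a row were tested, 4 were higher (33.7% of all genes tested) and 4 lower (31.5%), with a median of 0.34. A4GALT, which starts the globo-series, had 1, 2 and 1 counts with vehicle and 22, 41 and 41 with panobinostat, a ratio of arm totals of 25.3 with a counting interval of 9.59 to 94.6. Like ST8SIA1 it passed the filter through the panobinostat arm alone. B3GNT5, which starts the lacto-series, fell from 9.94 ± 0.707 to 3.12 ± 0.249 CPM. B4GALT2, a galactosyltransferase related to the lactosylceramide synthases, fell from 103.6 ± 9.03 to 39.0 ± 2.88 CPM, and B3GALT5, which adds galactose in the lacto-series, rose 1.71-fold.

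Among sialyltransferases outside the 10 enzymes, 13 of 16 were tested, with a median of -0.37. Of these, 4 were higher (33.7% of all genes tested were) and 8 were lower (31.5% of all genes tested). ST8SIA3, of the same family of alpha-2,8-sialyltransferases as ST8SIA1, fell from 46.2 ± 0.562 to 14.9 ± 1.10 CPM. That family went both ways, since ST8SIA2 fell by 0.85 ± 0.11 on the log2 scale and ST8SIA4 rose by 0.68 ± 0.09. ST6GAL1, which acts mainly on glycoproteins, and ST3GAL6 fell by 1.35 ± 0.11 and 1.17 ± 0.09 on the log2 scale. ST6GALNAC3, which acts on gangliosides among other acceptors, rose from 62.1 ± 0.779 to 123 ± 2.68 CPM. In its family ST6GALNAC4 rose too (0.83 ± 0.11), ST6GALNAC5 fell from 115 ± 1.49 to 60.3 ± 4.81 CPM, and ST6GALNAC6 did not pass (0.16 ± 0.09). Of 10 genes for sialic acid, its transport and other sugar donors, 9 were tested, 2 were higher and 4 were lower, with a median of -0.17. GNE, which starts sialic acid synthesis, fell from 119.9 ± 2.37 to 80.0 ± 2.97 CPM, and CASD1, which O-acetylates sialic acid, fell by 0.74 ± 0.07. UGP2, which makes UDP-glucose, rose 1.66-fold.

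Of 14 genes for lysosomal breakdown of gangliosides and related lipids, 12 were tested, 7 were higher (33.7% of all genes tested were) and 3 were lower (31.5% of all genes tested), with a median log2 fold change of 0.77 against 0.01 for all genes tested. These counts are a description and were not tested as a group. GM2A, the activator protein that presents GM2 for degradation, rose from 2.66 ± 0.207 to 11.1 ± 2.38 CPM. PSAP, the precursor of the saposins, rose from 422 ± 10.8 to 1071 ± 48.8 CPM. SLC17A5, which exports free sialic acid from lysosomes, rose 3.40-fold. The 3 that were lower were GALC (-0.81 ± 0.08), HEXA (-0.51 ± 0.08) and GLB1 (-0.40 ± 0.08), so the list did not move as a whole. The summed level of the 13 genes with a row went from 174 to 187 FPKM with vehicle to 398 to 428 FPKM with panobinostat, most of it PSAP.

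**Figure D3:**
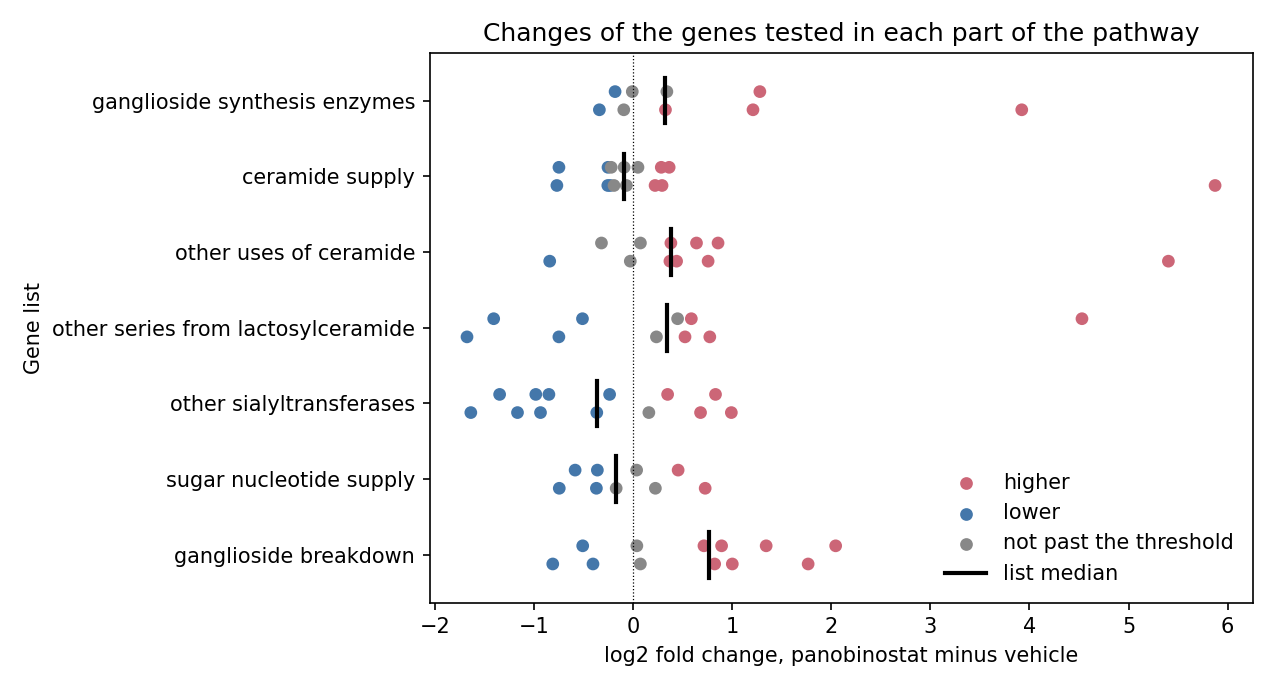
Log2 fold change (panobinostat minus vehicle) of each tested gene of the enzymes and of the lists around them, with calls as colours and the list median as a bar. The median is 0.33 for the ganglioside synthesis enzymes, -0.37 for other sialyltransferases and 0.77 for ganglioside breakdown. The 2 points farthest to the right are SPTLC3 and GAL3ST1, fitted against 1 vehicle count each.

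B4GALNT1 lies on chromosome 12 among genes of which several were abundant in these libraries, CDK4 above all. All 16 genes listed beside it had a row and lay within 186.6 kb. Ordered by vehicle FPKM, B4GALNT1 was number 14 of these 17 genes with itself included. CDK4, the cell cycle kinase 114 kb away, stood at 959 ± 35.5 FPKM with vehicle, and its CPM fell by 0.34 ± 0.09 on the log2 scale, a size like that of B4GALNT1. The 16 neighbours went both ways, with 4 higher (33.7% of all genes tested), 7 lower (31.5%) and a median of -0.15. AGAP2, a GTPase-activating protein gene 90.4 kb away, rose from 43.3 ± 3.44 to 255 ± 4.99 CPM, and MARCHF9 rose 2.46-fold. TSPAN31 rose 1.28-fold, and METTL1 fell by 0.98 ± 0.09. SLC26A10, which overlaps B4GALNT1 on the opposite strand, fell from 5.33 ± 1.62 to 2.52 ± 0.743 CPM (-1.06 ± 0.25, adjusted p = 0.00185). OS9 and KIF5A did not pass (0.12 ± 0.07 and -0.15 ± 0.08), though OS9 passed under 2 other scalings (library size, upper quartile) and limma on FPKM (adjusted p = 0.00333 to 0.00651). The fall of CDK4 did not pass with upper quartile scaling or limma on FPKM (adjusted p = 0.0531 to 0.228).

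**Figure D4:**
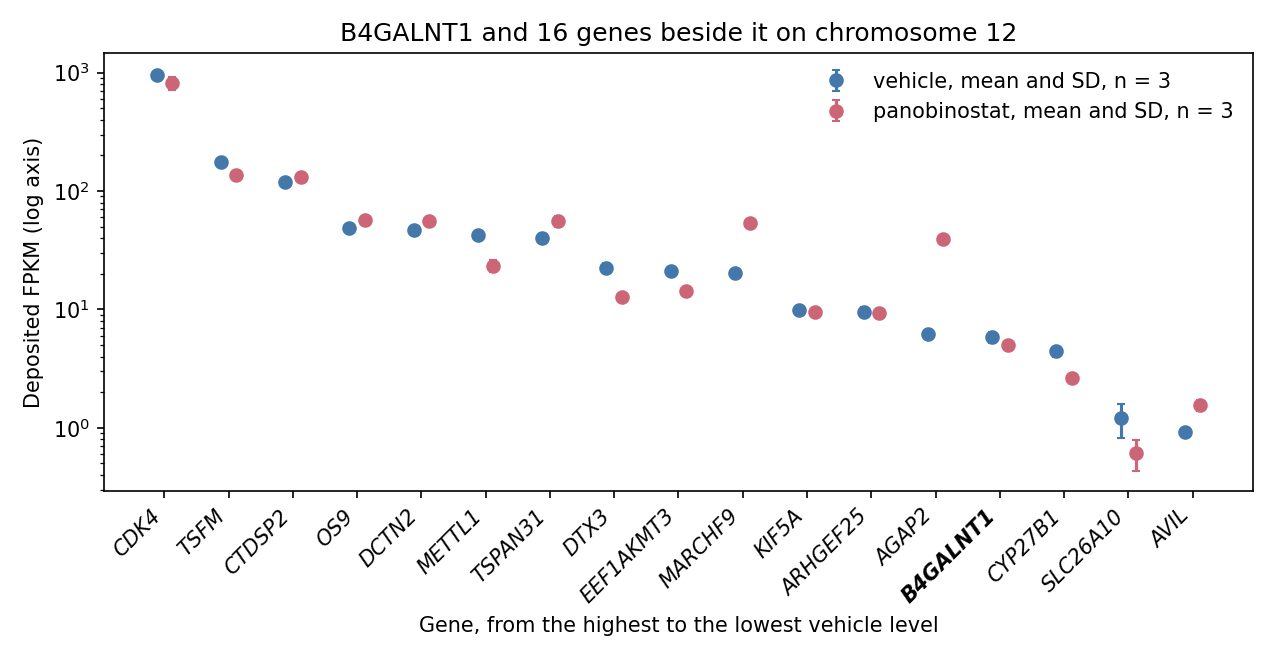
Deposited FPKM (log axis, mean and SD of 3 libraries per arm) of B4GALNT1 and 16 genes beside it, from the highest to the lowest vehicle level. B4GALNT1 is number 14 of 17, CDK4 is the highest at 959 FPKM, and AGAP2 rises from 6.19 to 39.3 FPKM.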

How the data were processed

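Total RNA of 6 libraries was sequenced, and arms and letters came from the sample titles. Per the file headers, the deposited counts per gene come from featureCounts 1.5.0-p3, run by the authors on Ensembl release 84 with the largest overlap and strand option 2. The submitters' processing notes name featureCounts 1.5.1, Novoalign 2.8 and hg38. The deposited FPKM values are the authors' own, made with a tool not given in the sources used here. The command in the header names 9 alignment files, 6 of them with a column in the tables, and the others were not analysed here.

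Symbols came from a table of gene identifiers (19383 of 22718 rows, with GENCODE 29 filling gaps) and coordinates from GENCODE 29. Low genes were removed with filterByExpr (at least 10 counts, which is 0.587 CPM, in 3 libraries and 15 in total), the rest scaled by TMM and tested over the whole table with edgeR 4.0.16 in R 4.3.3 (quasi-likelihood, no further term). The SE is the log2 fold change over the square root of F. The steps were tested on simulated data.

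Members and lists were chosen with earlier results of these data known. All 10 members are named. From each other list the 4 called genes with the largest change were named, if they averaged at least 1 CPM, and beside B4GALNT1 also CDK4, OS9, AGAP2, TSPAN31 and KIF5A. Results for 2 of the genes so chosen are not reported here. CMAS, GATA3, MYCN, HAND2, TH, LYZ, PTPRC, SPTLC3, GAL3ST1, UPK1B, FOXA1 and TP63 were chosen after their values were seen. ST8SIA2, ST8SIA4, ST6GALNAC4, ST6GALNAC5, ST6GALNAC6, GALC, HEXA and GLB1 were also named outside the rule, with their values known. Alternatives were DESeq2 1.42.0, 3 other scalings, 2 other filters, the letter as a block, limma 3.58.1 on log2(FPKM + 1) with and without a filter at 1 FPKM and on log2(FPKM + 0.1), and each library left out.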

Additional observations from a re-analysis of the deposited data

How the results depend on the processing

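The number of enzymes called higher was 4. It was 5 with library size alone and with upper quartile scaling, which added B4GALT6, 3 with DESeq2, with a filter at a mean of 1 CPM and with limma without a filter, and 2 with limma on FPKM with a filter at either pseudocount, which did not keep ST8SIA1 and ST8SIA5. It ran from 3 to 5 when each library was left out. The number called lower was 2, and it was 1 with DESeq2 and 1 with a filter at a mean of 1 CPM. It was 0 with library size alone in edgeR (1 at an unadjusted p of 0.05 or less), 0 with upper quartile scaling (0 unadjusted) and 0 in each of the 3 limma fits (0 unadjusted), and it ran from 1 to 2 when each library was left out. No log2 fold change of an enzyme, or of a gene named by the rule above, reversed while past the threshold in the 16 alternatives. Genes named outside that rule were not followed through the alternatives. The rises of ST8SIA1, ST3GAL5 and B4GALT5 passed wherever they were tested. The cause of the lost calls was not tested, beyond the shift of all genes that the scalings bring.

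With the letter as a replicate block 4 enzymes were higher and 2 lower, as without it, and the counts over all genes were 5432 and 5109 against 5416 and 5066. Deviations from the arm means correlated at 0.12, -0.04 and 0.19 between libraries of the same letter (14422 genes). Vehicle library B correlated best with panobinostat library C, at 0.06. These weak values come from 3 libraries per arm and were not tested, so they do not settle whether the letters pair the libraries. Depth limits B3GALT4, ST8SIA5 and the vehicle level of ST8SIA1, each at 11 counts or fewer per vehicle library.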
